A study of Mus musculus with 18 samples.

Results

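A set of 35 genes of sterol and fatty acid synthesis, comprising enzymes under the control of the SREBP transcription factors, components of that control and a sterol carrier, was followed in bone marrow-derived macrophages (BMDM) treated with inhibitors of choline metabolism. The set was a fixed list of gene symbols, matched to the rows of the gene count table through the Ensembl identifiers of the mouse genome build GRCm38. All 35 were found among the 55385 genes of the table, and all 35 were among the 14979 genes that were tested, which reached 10 counts or more in 2 or more libraries. By role, 8 genes belonged to the mevalonate branch from acetyl-CoA to squalene, 10 to the post-squalene branch that ends in cholesterol, 11 to fatty acid synthesis, elongation and desaturation, and 6 to SREBP regulation and sterol transport.

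The cells were BMDM of female 12-week-old C57BL/6J mice, grown in L-929 culture supernatant and harvested after a week. They received vehicle (Veh, 0.1% DMSO), 250 µM HC3 (hemicholinium-3, an inhibitor of choline uptake) or 5 µM RSM (RSM-932a, a choline kinase inhibitor) for 24 h, after which they stayed naïve (M[0]) or were exposed to IL-4 at 20 ng/mL (M[IL-4]) during a further 24 h. This gave 6 groups of 3 libraries, 18 in all, from 3 mice, all of one strain, with no genetic change named in the labels. The comparisons asked how each inhibitor changed these genes in either polarization state, how IL-4 changed them under each treatment, and whether the inhibitor effect differed between M[0] and M[IL-4].

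SREBPs are made as precursors in the endoplasmic reticulum membrane. The escort protein SCAP carries them to the Golgi for cleavage when sterols are low, and the INSIG proteins hold SCAP in the endoplasmic reticulum when sterols are high. The released fragment enters the nucleus, where SREBP2 is known mainly for sterol synthesis genes and SREBP1 mainly for fatty acid synthesis genes. In macrophages the pathway is known for balancing the synthesis, uptake and efflux of cholesterol.

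Libraries held 17457796 to 19522255 counted read pairs, so that 3 counts corresponded to between 0.153 and 0.176 counts scaled to library size (CPM, adjusted by the TMM method of edgeR throughout). All 8 macrophage markers examined were expressed in every group, and *Csf1r*, the receptor for the growth factor of these cells, averaged 1519 to 3967 CPM per group. In M[0], HC3 lowered 8 and RSM 7 of these 8 markers by the test described below and raised none, whereas in M[IL-4] HC3 lowered 7 and raised 1 (*Fcgr1*), and RSM lowered 1 (*Csf1r*) and raised 2 (*Fcgr1* by 0.66 and *Lyz2* by 0.38 on the log2 scale). IL-4 lowered 7 of the 8 in Veh, lowered 3 and raised 2 under HC3, and lowered 3 and raised 3 under RSM. Markers of stromal cells were also present: their summed level was 527 to 888 CPM in Veh M[0] and 1233 to 1699 CPM in HC3 M[0], 1036 to 1486 CPM in RSM M[0], 285 to 665 CPM in Veh M[IL-4], 563 to 1061 CPM in HC3 M[IL-4] and 541 to 1077 CPM in RSM M[IL-4]. Of the 7 stromal markers, the collagens *Col1a1*, *Col1a2* and *Col3a1* carried nearly all of this signal, whereas *Lum* was at 0 in 5 of the 6 groups. Of the 6 tested, 3 and 2 rose with HC3 and RSM in M[0], and 2 rose with each in M[IL-4], all of them collagens, while *Dcn* (decorin) fell with RSM in both states (log2 fold changes -1.51 in M[0] and -1.55 in M[IL-4], edgeR FDR 7.4e-05 and 0.00011). With IL-4, 1 of the 6 fell in Veh, 2 under HC3 and 1 under RSM, and none rose. The neutrophil, adipocyte, dendritic, B cell and T cell lists each summed to 2.90 CPM or less in every library. Counts from mitochondrial genes made up 0.665% to 3.45% of a library, and this share was highest in HC3 and lowest in RSM libraries. Whether these shifts take part in the results on the synthesis genes was not tested, and in bulk RNA fewer cells of a type and less RNA per cell cannot be told apart.

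RefSeq promoters (GRCm38.p6) were at hand for 28 of the 35 genes. A search of both strands for the sterol element core TCACCCCAC, counted over 250 bases before to 50 bases after the start, found it in 1 gene, *Hmgcs1*, compared with 0.551% of all 32851 promoters. The looser form TCACNCCAC, which includes the core, was also found in *Hmgcs1* alone and in 1.24% of all promoters. The E-box CACGTG was present in 6 genes (*Hsd17b7*, *Insig1*, *Dhcr7*, *Sc5d*, *Elovl5* and *Scap*), or 18.9% of the members' 37 promoters, against 7.15% of all promoters. CCAAT boxes, the usual site of the SREBP partner NF-Y, were present in 23 genes, or 64.9% of their promoters, against 37.4% of all. The 250 bases before the start of 5 genes are given because these genes carry the main patterns described here. Of the 28 genes searched, only *Hmgcs1* held the exact letters of the sterol element core. *Idi1*, *Cyp51* and *Insig1* fell, and *Elovl6* rose. These 5 genes were picked after the values had been seen. Beyond the looser form, variants of the sterol element were not searched for, and genes without a promoter entry were not searched at all. Capitals mark the sterol element core, the E-box and the CCAAT box (CCAAT, or ATTGG where it lies on the other strand), and a match is a description of the letters, not evidence of binding. The windows were chr13:119690101-119690350 (plus strand) for *Hmgcs1*, chr13:8885356-8885605 (plus) for *Idi1*, chr5:4104698-4104947 (minus) for *Cyp51*, chr5:28071162-28071411 (plus) for *Insig1* and chr3:129532136-129532385 (plus) for *Elovl6*.
Hmgcs1: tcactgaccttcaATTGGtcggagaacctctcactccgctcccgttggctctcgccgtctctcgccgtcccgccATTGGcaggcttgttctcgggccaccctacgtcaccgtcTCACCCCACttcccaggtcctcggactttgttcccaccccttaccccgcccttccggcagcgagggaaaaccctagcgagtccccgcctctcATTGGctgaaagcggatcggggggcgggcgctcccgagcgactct
Idi1: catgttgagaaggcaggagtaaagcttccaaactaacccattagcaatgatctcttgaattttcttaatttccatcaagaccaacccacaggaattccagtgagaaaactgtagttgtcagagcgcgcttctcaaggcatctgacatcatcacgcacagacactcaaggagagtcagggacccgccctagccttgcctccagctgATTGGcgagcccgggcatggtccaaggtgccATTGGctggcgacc
Cyp51: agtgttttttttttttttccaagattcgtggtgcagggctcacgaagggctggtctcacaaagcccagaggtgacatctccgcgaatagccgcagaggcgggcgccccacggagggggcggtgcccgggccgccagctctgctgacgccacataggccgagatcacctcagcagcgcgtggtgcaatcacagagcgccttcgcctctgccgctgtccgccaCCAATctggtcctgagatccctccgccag
Insig1: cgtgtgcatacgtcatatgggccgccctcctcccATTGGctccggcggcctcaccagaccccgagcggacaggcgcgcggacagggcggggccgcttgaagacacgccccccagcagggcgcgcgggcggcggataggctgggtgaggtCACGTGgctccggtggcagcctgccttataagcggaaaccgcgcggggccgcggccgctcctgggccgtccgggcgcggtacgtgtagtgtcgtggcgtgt
Elovl6: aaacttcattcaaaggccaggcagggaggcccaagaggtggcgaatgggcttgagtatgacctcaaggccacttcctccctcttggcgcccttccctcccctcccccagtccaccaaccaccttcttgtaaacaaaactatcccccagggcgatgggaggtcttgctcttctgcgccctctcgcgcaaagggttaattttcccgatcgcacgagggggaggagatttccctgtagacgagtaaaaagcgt
Of the marked letters, the *Elovl6* window held none, and the *Idi1* and *Cyp51* windows held only CCAAT boxes. Whether these windows hold variant sterol elements was not tested.

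In vehicle-treated macrophages the 35 genes spanned a wide range of levels. Per kilobase of exon, the mean level in Veh M[0] ran from 0.419 CPM per kb for *Fdps*, which encodes farnesyl diphosphate synthase, to 37.1 CPM per kb for *Acly*, the citrate lyase that supplies cytosolic acetyl-CoA. The transcription factor genes were among the more abundant, with *Srebf2* at 26.1 and *Srebf1* at 17.6 CPM per kb. The *Fdps* level is uncertain, because part of its sequence is shared with other genes. *Acss2*, the acetate-activating enzyme, stood near the bottom at 0.449 CPM per kb. *Insig1* at 21.0 CPM per kb lay above *Insig2* at 10.3 CPM per kb.

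**Figure D1:**
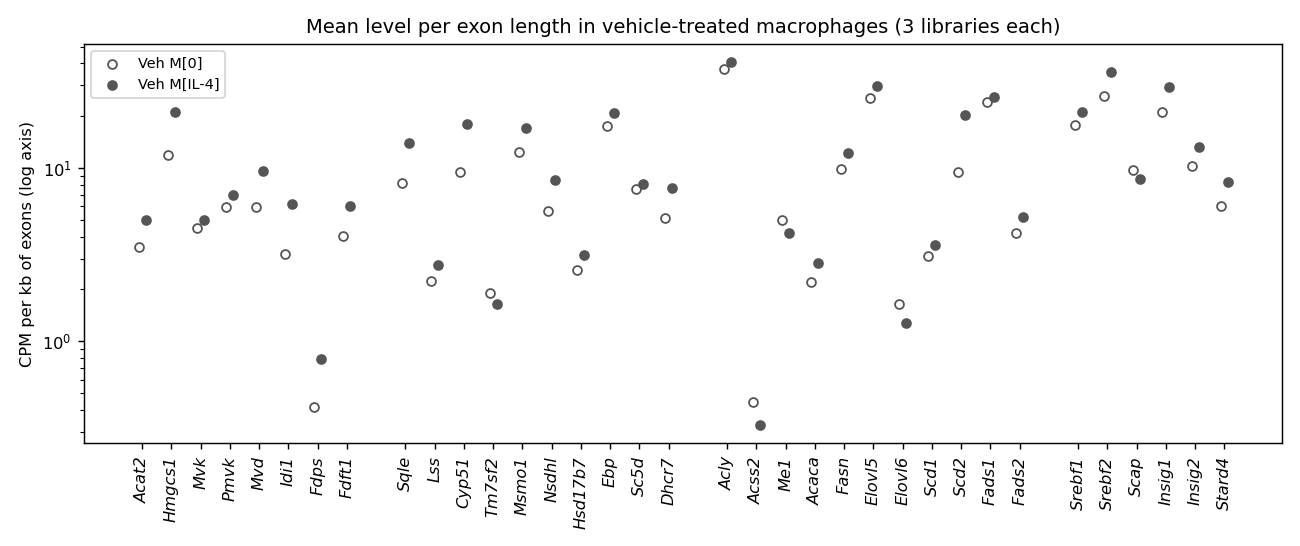
Mean level of each of the 35 genes in vehicle-treated macrophages, in CPM per kb of exon on a log axis, ordered by branch from mevalonate genes on the left to SREBP regulators on the right. Open circles are Veh M[0] and filled circles Veh M[IL-4], each the mean of 3 libraries. *Acly* is the highest and *Fdps* and *Acss2* are the lowest.

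Choline metabolism inhibition lowered much of the sterol pathway, and more members passed in M[IL-4] than in M[0]. A gene is said here to have risen or fallen when the edgeR quasi-likelihood test gave a false discovery rate (FDR, Benjamini-Hochberg over all tested genes) under 0.05, and to have been called when its log2 fold change was also at least 1 or at most -1. In M[IL-4], HC3 lowered 28 and raised 2 of the 35 genes, compared with 19.9% of all genes that fell and 18.9% that rose. RSM in M[IL-4] lowered 27 and raised 2, compared with 18.5% and 20.1% of all genes. In M[0], HC3 lowered 14 and raised 5, against 21.5% and 22.6% of all genes. RSM in M[0] lowered 12 and raised 5, against 20.7% and 20.5% of all genes. The number raised by HC3 in M[0] was 3 without any 1 of the replicates. The median log2 fold change of the members was -0.70 for HC3 and -0.66 for RSM in M[IL-4] and -0.21 for both in M[0], while the median of all tested genes lay between 0.0053 and 0.0227 in the 4 comparisons.

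Fewer genes met the fold threshold as well. HC3 gave 12 called decreases and 1 called increase in M[IL-4], against 5.53% and 4.72% of all genes, and 3 decreases and 2 increases in M[0], against 6.11% and 5.93%. RSM gave 11 decreases and 1 increase in M[IL-4], against 6% and 5.05% of all genes, and 3 decreases and 1 increase in M[0], against 6.51% and 5.05%. For both inhibitors in M[0], the called counts were small and stood near the background. The HC3 and RSM comparisons within a polarization state share the same vehicle libraries, so their likeness is not independent. With 3 libraries against 3, a two-sided exact permutation test cannot go below p = 0.1, and all p-values given are from the edgeR fit.

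**Figure D2:**
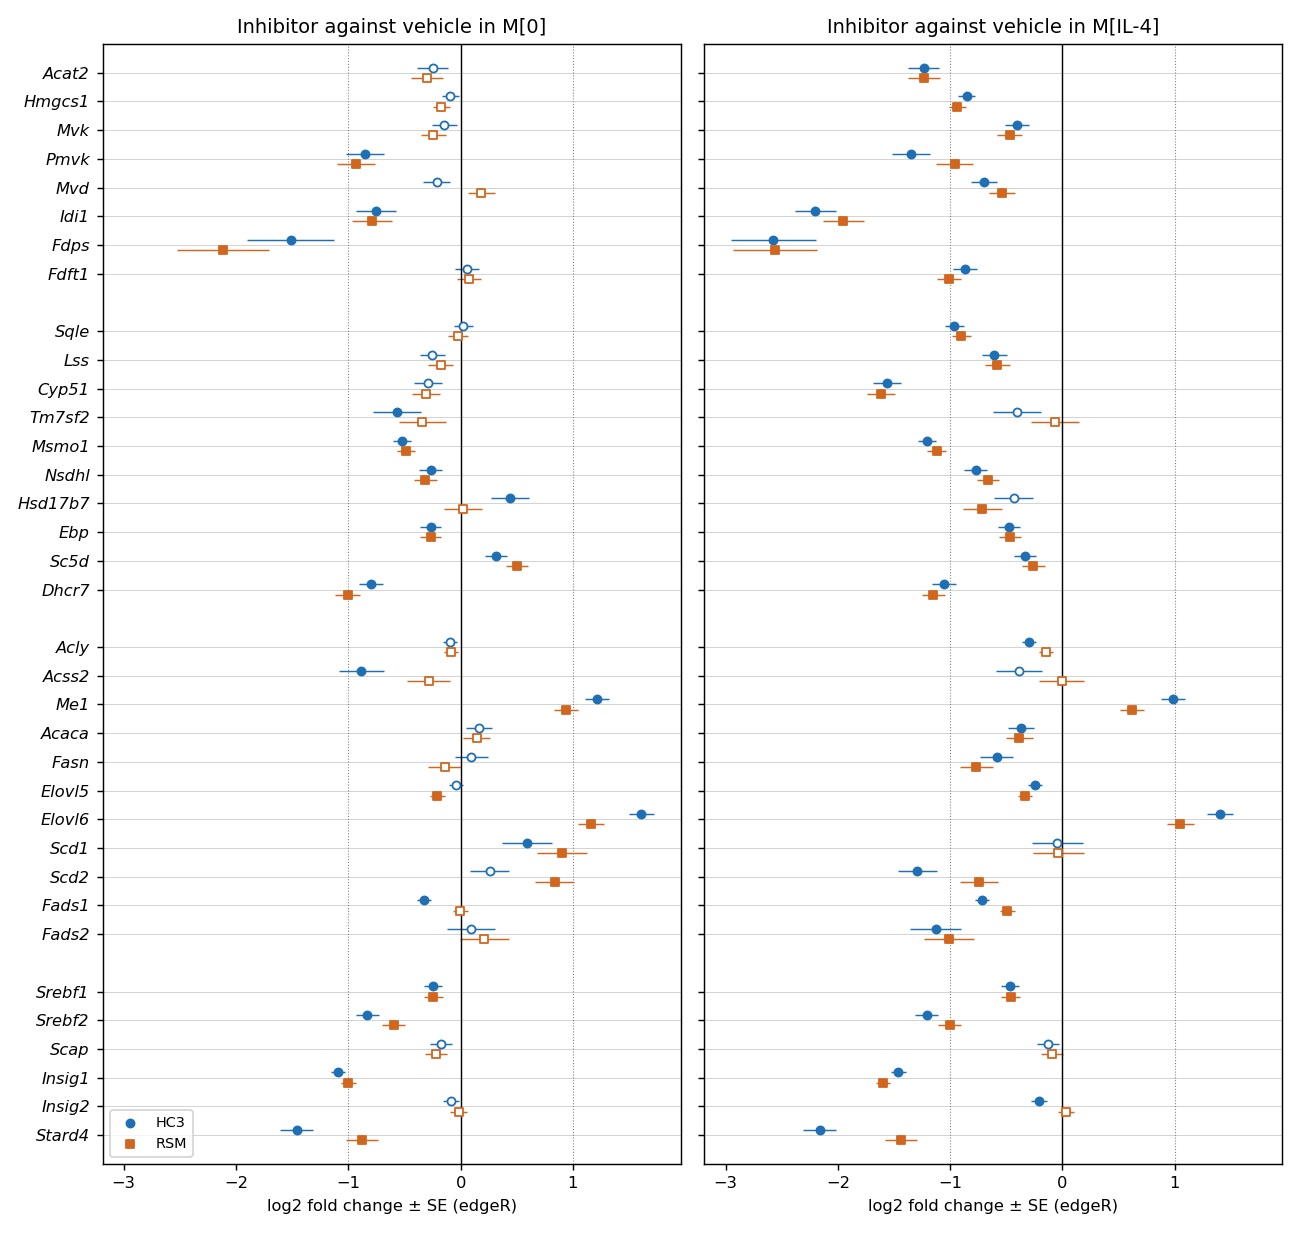
Log2 fold change ± SE of each of the 35 genes for inhibitor against vehicle in M[0] (left) and M[IL-4] (right), from edgeR with 3 libraries per group. Blue circles are HC3 and orange squares RSM, filled where the FDR was under 0.05, and dotted lines mark log2 fold changes of -1 and 1. Most sterol genes lie further to the left in M[IL-4], while *Elovl6* and *Me1* lie to the right in both states.

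All 8 mevalonate genes fell with HC3 and all 8 with RSM in M[IL-4], whereas *Pmvk*, *Idi1* and *Fdps* were the 3 that fell in M[0] with either inhibitor. *Idi1* encodes isopentenyl diphosphate isomerase, which makes the second of the pair of building blocks for isoprenoids. Its level was 21.6, 19.9 and 23.2 CPM in Veh M[IL-4], 5.04, 3.93 and 5.09 CPM with HC3, and 5.50, 4.52 and 6.71 CPM with RSM. In M[0], *Idi1* was at 13.4, 8.63 and 11.3 CPM with vehicle, 7.81, 5.33 and 6.63 CPM with HC3, and 6.83, 5.49 and 6.98 CPM with RSM. Every inhibitor library thus lay below every vehicle library of the same state. Part of the longest *Idi1* transcript, 33.3%, is near-identical to other genes. These were at 0.168 CPM or less in every library, which does not show whether shared reads were lost from *Idi1*. The log2 fold change in M[IL-4] was -2.20 ± 0.18 (SE; edgeR FDR 1.9e-08) for HC3 and -1.95 ± 0.18 (FDR 6.1e-08) for RSM. In M[0] it was -0.75 ± 0.18 (FDR 0.0021) and -0.79 ± 0.18 (FDR 0.0016).

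*Pmvk*, phosphomevalonate kinase, measured 12.4, 11.1 and 12.1 CPM in Veh M[IL-4], 5.32, 4.70 and 3.94 CPM with HC3 and 6.52, 4.36 and 7.40 CPM with RSM. In M[0] it measured 8.90, 11.6 and 10.1 CPM with vehicle, 5.62, 5.43 and 5.89 CPM with HC3 and 5.01, 6.01 and 4.98 CPM with RSM. The vehicle libraries were the highest in both states with no overlap, and the log2 fold change with HC3 was -0.85 ± 0.17 in M[0] (edgeR FDR 0.00044) against -1.35 ± 0.17 in M[IL-4] (4.1e-06). With RSM it was -0.93 ± 0.17 (FDR 0.0002) against -0.96 ± 0.17 (0.00013). *Fdps*, the farnesyl diphosphate synthase gene, fell by the largest factor from a low level, with 23 to 63 counts in a vehicle library and 3 to 15 counts in an inhibitor library, where 3 counts is the floor. It was at 2.91, 3.60 and 3.53 CPM in Veh M[IL-4], 0.623, 0.332 and 0.712 CPM with HC3 and 0.662, 0.646 and 0.372 CPM with RSM. The corresponding M[0] values were 1.94, 2.12 and 1.24 CPM with vehicle, 0.642, 0.410 and 0.789 CPM with HC3 and 0.160, 0.314 and 0.719 CPM with RSM. Vehicle libraries again lay above all inhibitor libraries, with log2 fold changes for HC3 of -2.58 ± 0.38 in M[IL-4] (edgeR FDR 2.4e-05) against -1.51 ± 0.39 in M[0] (0.0038), and for RSM of -2.56 ± 0.38 (2.2e-05) against -2.12 ± 0.41 (0.0004). The *Fdps* values are uncertain, because 16.7% of its longest transcript is near-identical to other genes and 26.7% of its exons overlap *Gm43738* on the same strand. Without replicate 2, the HC3 call of *Fdps* in M[0] was lost, leaving 4 called members in place of 5.

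The other 5 mevalonate genes passed in M[IL-4] and not in M[0], with log2 fold changes from -1.24 to -0.40 for HC3 and from -1.23 to -0.47 for RSM. *Acat2*, which joins acetyl-CoA units at the entry of the pathway, was at 12.9, 12.9 and 12.5 CPM in Veh M[IL-4]. It was between 5.04 and 5.60 CPM with HC3 and between 5.35 and 5.53 CPM with RSM, and was called for both. Part of its longest transcript, 19.8%, is near-identical to *Tcp1*, which was at 136 to 192 CPM, so reads in that stretch cannot be assigned with certainty. *Hmgcs1*, the HMG-CoA synthase gene that held the sterol element core, was at 92.3, 106 and 90.1 CPM in Veh M[IL-4]. It was at 48.6 to 58.2 CPM with HC3 and 49.6 to 50.7 CPM with RSM (log2 fold changes -0.85 and -0.94). In M[0] its log2 fold changes of -0.09 and -0.17 did not pass (edgeR FDR 0.36 and 0.085), although the RSM value passed with a replicate block within each polarization state (0.0289). *Mvk* with either inhibitor and *Mvd* with RSM no longer passed without replicate 3 (FDR 0.188, 0.0961 and 0.0618), nor *Mvk* with HC3 without replicate 1 (0.0518). *Fdft1*, squalene synthase, had log2 fold changes of -0.87 ± 0.11 with HC3 and -1.01 ± 0.11 with RSM in M[IL-4], and in M[0] the values were 0.06 and 0.07 and did not pass. Its exons overlap those of *Ctsb* on the opposite strand over 18.3% of their length, and *Ctsb* itself was at 9530 CPM or more in every library, so reads in that stretch cannot be assigned with certainty. The RSM call of *Fdft1* was lost without replicate 2, where 8 members were called lower in place of 11.

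Among the 10 post-squalene genes, HC3 lowered 8 in M[IL-4] and 5 in M[0], and RSM lowered 9 and 4. Of all genes, HC3 lowered 19.9% in M[IL-4] and 21.5% in M[0], and RSM lowered 18.5% and 20.7%. In M[0], HC3 also raised 2 of the 10 and RSM raised 1. These increases were not above the background of 22.6% and 20.5% of all genes. *Cyp51*, the lanosterol demethylase, was lowered in M[IL-4] and did not pass in M[0]. It was at 74.6, 85.9 and 76.8 CPM in Veh M[IL-4], 26.8, 26.1 and 27.4 CPM with HC3 and 26.1, 23.2 and 27.9 CPM with RSM. In M[0], the values were 47.7, 35.3 and 42.2 CPM with vehicle, 38.4, 32.9 and 31.1 CPM with HC3 and 40.9, 28.8 and 31.3 CPM with RSM. The groups were well apart in M[IL-4] (log2 fold changes -1.56 ± 0.13 for HC3, edgeR FDR 1.1e-08, and -1.62 ± 0.13 for RSM, FDR 6.2e-09) and overlapped in M[0] (-0.29 ± 0.12, FDR 0.066, and -0.31 ± 0.12, FDR 0.053), where both passed with the replicate block within polarization (0.00303 and 0.00148).

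*Msmo1* and *Dhcr7* fell in both states. *Msmo1*, the methylsterol oxidase that removes the C4 methyl groups, was at 95.2, 112 and 106 CPM in Veh M[IL-4], 41.2, 48.0 and 46.4 CPM with HC3 and 47.1, 46.3 and 50.7 CPM with RSM. Its M[0] values were 82.1, 71.9 and 72.2 CPM with vehicle, 56.7, 52.3 and 48.8 CPM with HC3 and 53.5, 51.4 and 56.5 CPM with RSM. No inhibitor library reached the lowest vehicle library, and the log2 fold change with HC3 was -1.21 ± 0.08 in M[IL-4] against -0.52 ± 0.08 in M[0], and with RSM it was -1.12 ± 0.08 against -0.49 ± 0.08 (edgeR FDR of 7.9e-05 or less in all 4). *Dhcr7*, which catalyses a final step of cholesterol synthesis, was at 49.0, 41.0 and 43.7 CPM in Veh M[IL-4], 21.5, 21.4 and 21.4 CPM with HC3 and 19.4, 22 and 18.9 CPM with RSM. In M[0] it was at 33.9, 26.1 and 29.6 CPM with vehicle, 19.7, 15.8 and 16.1 CPM with HC3 and 14.5, 14.5 and 15.5 CPM with RSM. The groups did not overlap, and the log2 fold change with HC3 was -0.80 ± 0.11 in M[0] against -1.06 ± 0.10 in M[IL-4], and with RSM -1.01 ± 0.11 against -1.15 ± 0.10. The *Dhcr7* value for RSM in M[0] sat on the fold threshold, and its call was lost without replicate 1, as was its HC3 call in M[IL-4].

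The other post-squalene genes had log2 fold changes of -0.96 to -0.33 with HC3 and -0.90 to -0.07 with RSM in M[IL-4]. *Sqle*, squalene epoxidase, did not pass in M[0] (log2 fold changes 0.02 and -0.02) but fell in M[IL-4] (-0.96 and -0.90). *Sc5d*, lathosterol desaturase, rose in M[0] (0.31 and 0.50) and fell in M[IL-4] (-0.33 and -0.26), and this difference passed with both inhibitors (interaction terms -0.65 ± 0.14 and -0.76 ± 0.14, edgeR FDR 0.0085 and 0.0016). *Hsd17b7*, a 3-ketosterol reductase, rose with HC3 in M[0] (0.44 ± 0.17, edgeR FDR 0.044), the weakest pass among the increases, while RSM lowered it in M[IL-4] (-0.72 ± 0.17, FDR 0.0027, but 0.093 without replicate 1). *Tm7sf2*, a sterol C14 reductase, passed only as a fall with HC3 in M[0] (-0.57 ± 0.21, FDR 0.038), and with the block also as a fall with HC3 in M[IL-4] (FDR 0.0324). The HC3 values of *Hsd17b7* and *Tm7sf2* in M[0] did not pass with any 1 replicate left out, with FDR up to 0.236 and 0.185. The *Sc5d* values did not pass in M[IL-4] without replicate 2 or 3 (FDR up to 0.134 and 0.194), nor did the HC3 value in M[0] without replicate 2 (0.162); its interaction terms were lost without replicate 3 (0.155 and 0.0565), and the HC3 term also without replicate 2 (0.125).

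Fatty acid genes did not move as one group. HC3 and RSM lowered 7 and 6 of the 11 in M[IL-4], against 19.9% and 18.5% of all genes. They raised 2 in each case, against 18.9% and 20.1%. In M[0], HC3 raised 3 and lowered 2 of the 11, against 22.6% and 21.5% of all genes. RSM there raised 4 and lowered 1, against 20.5% and 20.7%. The increases in M[IL-4] and both HC3 counts in M[0] stood near the background. *Elovl6*, the elongase that extends palmitate to stearate, rose in all 4 comparisons. Its level was 11.9, 9.63 and 9.95 CPM in Veh M[0], 33.9, 29.8 and 32.5 CPM with HC3 and 23.4, 24.6 and 22.5 CPM with RSM. After IL-4 it was at 6.62, 9.35 and 8.68 CPM with vehicle, 21.6, 19.9 and 23.6 CPM with HC3 and 17.7, 16.8 and 16.6 CPM with RSM. All inhibitor libraries lay above all vehicle libraries, with HC3 above RSM in both states. With HC3 the log2 fold change was 1.61 ± 0.11 in M[0] (edgeR FDR 1.5e-09) against 1.40 ± 0.12 in M[IL-4] (2.1e-08), with RSM it was 1.16 ± 0.11 (1.5e-07) against 1.05 ± 0.12 (8.6e-07), and the call for RSM in M[IL-4] was lost without replicate 1.

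*Me1*, malic enzyme, which supplies NADPH for lipid synthesis, also rose in all 4. It was at 20.9, 18.9 and 18.3 CPM in Veh M[0], 47.6, 43.5 and 43.9 CPM with HC3 and 40.1, 36.5 and 35 CPM with RSM. After IL-4 it was at 18.1, 14.3 and 16 CPM with vehicle, 33.9, 28.1 and 33.8 CPM with HC3 and 28.2, 22 and 24.2 CPM with RSM. The groups were separate, with a log2 fold change for HC3 of 1.22 ± 0.11 in M[0] against 0.98 ± 0.11 in M[IL-4], and for RSM of 0.94 ± 0.11 against 0.62 ± 0.11 (edgeR FDR of 0.00015 or less in all 4). Other genes, among them pseudogenes, match 60.1% of the longest *Me1* transcript at 98% identity or more. Each was at 0.176 CPM or less in every library. This cannot show whether shared reads were lost from *Me1*, because only read pairs of the stated mapping quality were kept. *Scd2*, the desaturase that makes monounsaturated fatty acids and is widely expressed, followed the state instead. It was at 59.1, 38.2 and 58.5 CPM in Veh M[0], 69.3, 55.6 and 61.5 CPM with HC3 and 103, 76.0 and 99.7 CPM with RSM. In M[IL-4] it was at 104, 107 and 120 CPM with vehicle, 49.8, 37.9 and 47.6 CPM with HC3 and 80.3, 50.0 and 67.8 CPM with RSM. RSM thus raised *Scd2* in M[0] (0.84 ± 0.17, FDR 0.00063) where HC3 overlapped vehicle (0.26 ± 0.17, FDR 0.24, and 0.0142 with the block), and both lowered it in M[IL-4], HC3 by -1.29 ± 0.17 (FDR 7.7e-06) and RSM by -0.74 ± 0.17 (FDR 0.0018, but 0.0646 without replicate 3) on the log2 scale.

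Of the other fatty acid genes, *Scd1*, a second stearoyl-CoA desaturase, rose in M[0] (0.59 ± 0.22 with HC3 and 0.90 ± 0.22 with RSM) and did not pass in M[IL-4], where HC3 gave -0.05 ± 0.23 (edgeR FDR 0.89) and RSM gave -0.04 ± 0.23 (0.92). The HC3 value in M[0] had overlapping groups and no longer passed without replicate 1 (FDR 0.155) or 3 (0.165). *Fads2*, the delta-6 desaturase, fell in M[IL-4] (-1.13 ± 0.22 and -1.01 ± 0.22) and did not pass in M[0] (0.09 and 0.21). The *Fads2* call was lost without replicate 2 for both inhibitors. *Fasn*, fatty acid synthase, and *Acaca*, acetyl-CoA carboxylase, fell in M[IL-4] with log2 fold changes of -0.58 and -0.77 and of -0.37 and -0.39, respectively, and did not pass in M[0]. *Acaca* no longer passed with HC3 without replicate 1 (edgeR FDR 0.147) or 2 (0.0708) or with RSM without replicate 1 (0.0747) or 3 (0.0715), nor *Fasn* with HC3 without replicate 1 (0.0531). The *Acaca* values carry some doubt, because 64.3% of its longest transcript matches the pseudogene *Gm5182*, which was at 0.164 to 1.16 CPM. *Acss2* fell with HC3 in M[0] (-0.88 ± 0.20), the largest decrease of a fatty acid gene in that state.

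Among the SREBP regulators and sterol transport genes, *Srebf1*, *Srebf2*, *Insig1* and *Stard4* fell in all 4 inhibitor comparisons, while *Scap* did not pass in any without a replicate block. *Insig1*, itself an SREBP target and a feedback brake on SCAP, varied little within groups. It was at 66.7, 62.5 and 65.8 CPM in Veh M[0], 30.8, 30.1 and 30.6 CPM with HC3 and 34.4, 29.6 and 33.4 CPM with RSM. Polarized cells had 90.7, 91.6 and 89.3 CPM with vehicle, 31, 32.9 and 34.7 CPM with HC3 and 28.7, 29.4 and 31.6 CPM with RSM. The inhibitor libraries lay in one band between 28.7 and 34.7 CPM in both states, well below all vehicle libraries. With HC3 the log2 fold change was -1.09 ± 0.07 in M[0] (edgeR FDR 1.7e-10) against -1.46 ± 0.07 in M[IL-4] (4.6e-12), and with RSM it was -1.001 ± 0.07 (6.1e-10) against -1.60 ± 0.07 (2.2e-12). The call for RSM in M[0] sat on the threshold and was lost without replicate 2.

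*Insig2*, the paralog of *Insig1*, stood apart from it. It was at 33.2, 39.4 and 34.3 CPM in Veh M[0], 34.8, 32.2 and 33.8 CPM with HC3 and 34.9, 35.9 and 34.8 CPM with RSM. Polarized cells had 42.4, 48.0 and 46.1 CPM with vehicle, 37.4, 41.3 and 39.6 CPM with HC3 and 47.2, 46.8 and 45.7 CPM with RSM. Only HC3 in M[IL-4] gave a value that passed (-0.21 ± 0.07, edgeR FDR 0.029), with no overlap there, and it did not pass with any 1 replicate left out (FDR up to 0.223). *Stard4*, which carries cholesterol between membranes, was at 35.4, 30.0 and 35.1 CPM in Veh M[0], 15.4, 9.99 and 11.2 CPM with HC3 and 19.3, 16.4 and 19.1 CPM with RSM. In M[IL-4] it was at 47.4, 44.2 and 47.3 CPM with vehicle, 9.51, 9.35 and 12.1 CPM with HC3 and 16, 14.9 and 20.4 CPM with RSM. HC3 libraries were the lowest in both states, and the log2 fold change with HC3 was -1.46 ± 0.15 in M[0] against -2.16 ± 0.15 in M[IL-4], and with RSM -0.87 ± 0.14 against -1.44 ± 0.14 (edgeR FDR of 6e-05 or less in all 4).

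*Srebf2*, the gene of the sterol-directed factor, was at 182, 173 and 207 CPM in Veh M[0], 104, 96.2 and 116 CPM with HC3 and 123, 111 and 138 CPM with RSM. Its M[IL-4] level was 266, 243 and 258 CPM with vehicle, 117, 99.0 and 116 CPM with HC3 and 139, 110 and 133 CPM with RSM. It fell without overlap in both states, with a log2 fold change for HC3 of -0.83 ± 0.10 in M[0] against -1.21 ± 0.10 in M[IL-4], and for RSM of -0.60 ± 0.10 against -1.005 ± 0.10 (edgeR FDR of 9.8e-05 or less in all 4). The RSM call in M[IL-4] was lost without replicate 2. *Srebf1*, the gene of the fatty acid-directed factor, moved less. It was at 93.7, 97.8 and 106 CPM in Veh M[0], 81.7, 80.5 and 88.8 CPM with HC3 and 78.0, 84.4 and 88.9 CPM with RSM. Its M[IL-4] level was 126, 111 and 116 CPM with vehicle, 95.2, 76.5 and 84.8 CPM with HC3 and 92.7, 82.2 and 82.2 CPM with RSM. The groups did not overlap, with a log2 fold change for HC3 of -0.24 ± 0.08 in M[0] (edgeR FDR 0.022) against -0.47 ± 0.08 in M[IL-4] (0.00015), and for RSM of -0.24 ± 0.08 (0.024) against -0.46 ± 0.08 (0.00016). Without replicate 3 the M[0] values no longer passed (FDR 0.138 and 0.15), nor did that of HC3 without replicate 2 (FDR 0.0645). The counts are per gene and do not separate the *Srebf1* transcript forms.

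*Scap* was at 69.0, 70.8 and 77.8 CPM in Veh M[0], 58.4, 65.5 and 69.3 CPM with HC3 and 59.0, 62.4 and 65.7 CPM with RSM. In M[IL-4] it was at 70.6, 58.9 and 63.0 CPM with vehicle, 65.4, 52.0 and 58.9 CPM with HC3 and 68.7, 55.8 and 56.1 CPM with RSM. The groups overlapped in 3 of the 4 comparisons, and the log2 fold changes of -0.17, -0.22, -0.13 and -0.09 (HC3 and RSM in M[0], then in M[IL-4]; SE 0.10 in each) did not pass. With the replicate block within each polarization state, the first 3 of these passed (edgeR FDR 0.00686, 0.00106 and 0.0474).

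**Figure D3:**
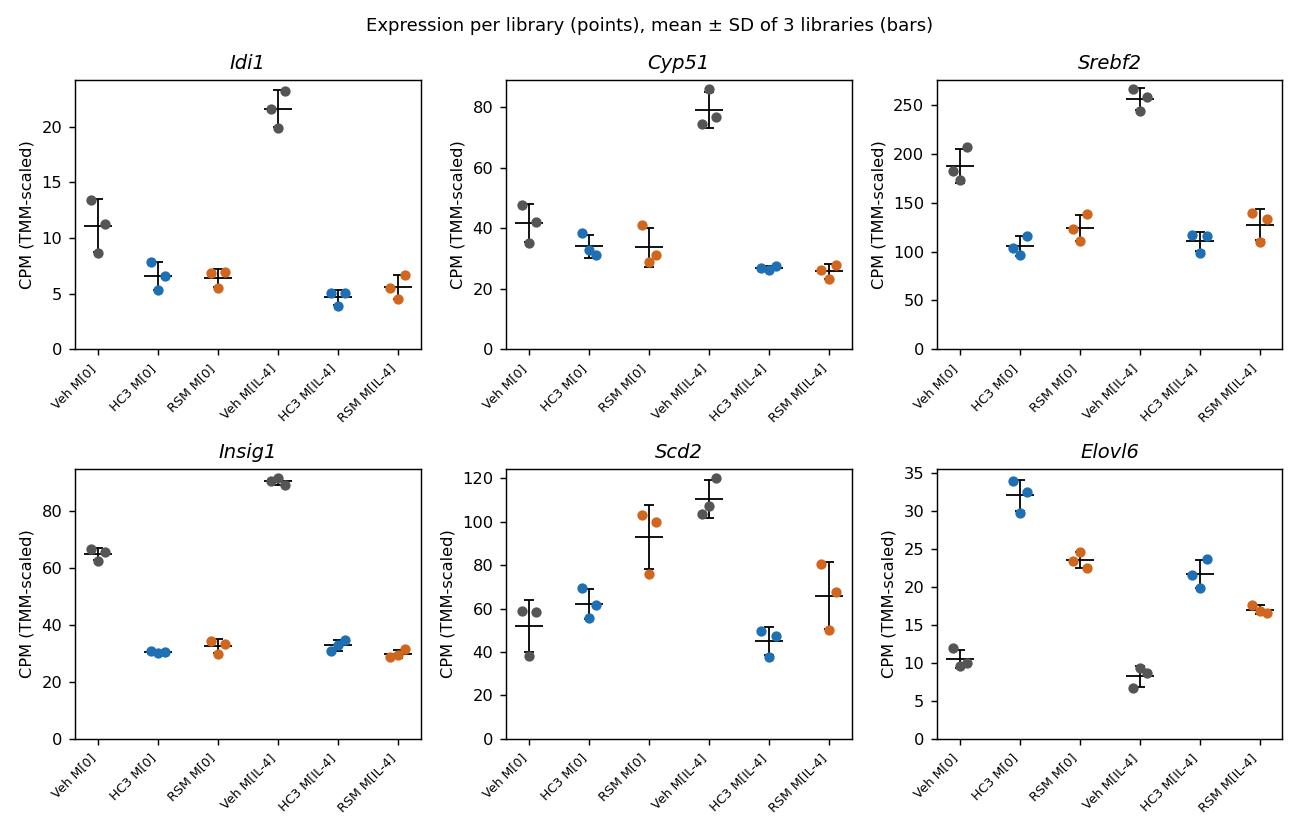
Level of *Idi1*, *Cyp51*, *Srebf2*, *Insig1*, *Scd2* and *Elovl6* in each of the 18 libraries, in TMM-scaled CPM. Points are libraries, and bars give the mean ± SD of the 3 libraries of a group. *Idi1*, *Cyp51*, *Srebf2* and *Insig1* are highest in Veh M[IL-4], *Scd2* is low in HC3 M[IL-4], and *Elovl6* is highest in HC3 M[0].

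IL-4 raised many of these genes in vehicle-treated macrophages and few under either inhibitor. In Veh, M[IL-4] against M[0] gave 20 genes that rose and 1 that fell, compared with 16.1% and 14.9% of all genes, with a median log2 fold change of 0.32 for the members. Without replicate 3, 13 rose, and with a replicate block within each polarization state 25 rose and 4 fell. *Scd2* alone was called (1.09 ± 0.17, edgeR FDR 7.9e-05), against 2.83% of all genes called higher. That count was 3 without replicate 1, with *Cyp51* and *Idi1* added, and 0 without replicate 2. Next in size were *Idi1* (0.96 ± 0.17), *Fdps* (0.92 ± 0.33), *Cyp51* (0.92 ± 0.12) and *Hmgcs1* (0.83 ± 0.08). By branch, 6 of 8 mevalonate, 6 of 10 post-squalene, 3 of 11 fatty acid and 5 of 6 regulator genes rose. *Srebf2* (0.45 ± 0.10) and *Srebf1* (0.25 ± 0.08) were among those that rose, and the gene that fell was *Elovl6* (-0.35 ± 0.12, FDR 0.034). With the block, *Acss2* (FDR 0.0434), *Me1* (0.00517) and *Scap* (0.00691) fell as well. *Elovl6* did not pass without a count filter (FDR 0.0796) or with only the groups compared (0.134). *Fdps* did not pass with any 1 replicate left out (FDR up to 0.233), *Elovl6* and *Srebf1* not without replicate 1 or 3 (up to 0.461 and 0.191), and *Srebf2* not without replicate 1 (0.0625).

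Under HC3, IL-4 raised 1 member (*Insig2*) and lowered 8, compared with 7.22% and 7.48% of all genes, and no member was called. Under RSM, IL-4 raised 2 (*Insig2* and *Dhcr7*) and lowered 8, compared with 8.79% and 6.74% of all genes, again with none called. For these 2 zero counts, DESeq2 also called no member, and at an unadjusted edgeR p under 0.05 there were 2 higher and 14 lower members under HC3 and 3 higher and 12 lower under RSM. *Fads2* fell most in both (-0.91 ± 0.22 under each inhibitor). *Insig2* rose with IL-4 under all 3 treatments, by 0.35, 0.23 and 0.40 on the log2 scale for Veh, HC3 and RSM. The Veh value did not pass without replicate 3 (FDR 0.0785), and the HC3 value did not without replicate 2 (0.228) or 3 (0.311), with library-size scaling (0.0691), without a count filter (0.0878) or with only the groups compared (0.0719). The rise of *Dhcr7* under RSM did not pass without replicate 2 (0.079) or 3 (0.0929), and with the block *Dhcr7* also rose under HC3 (0.00938). The number that fell under HC3 was 5 without replicate 1, 2 without replicate 3 and 15 with a replicate block within each polarization state, and under RSM it was 4 without replicate 3, 5 without replicate 1 and 12 with the block. The IL-4 comparison in Veh and the inhibitor comparisons in M[IL-4] share the Veh M[IL-4] libraries, so a rise in the first and a fall in the second are not separate observations.

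**Figure D4:**
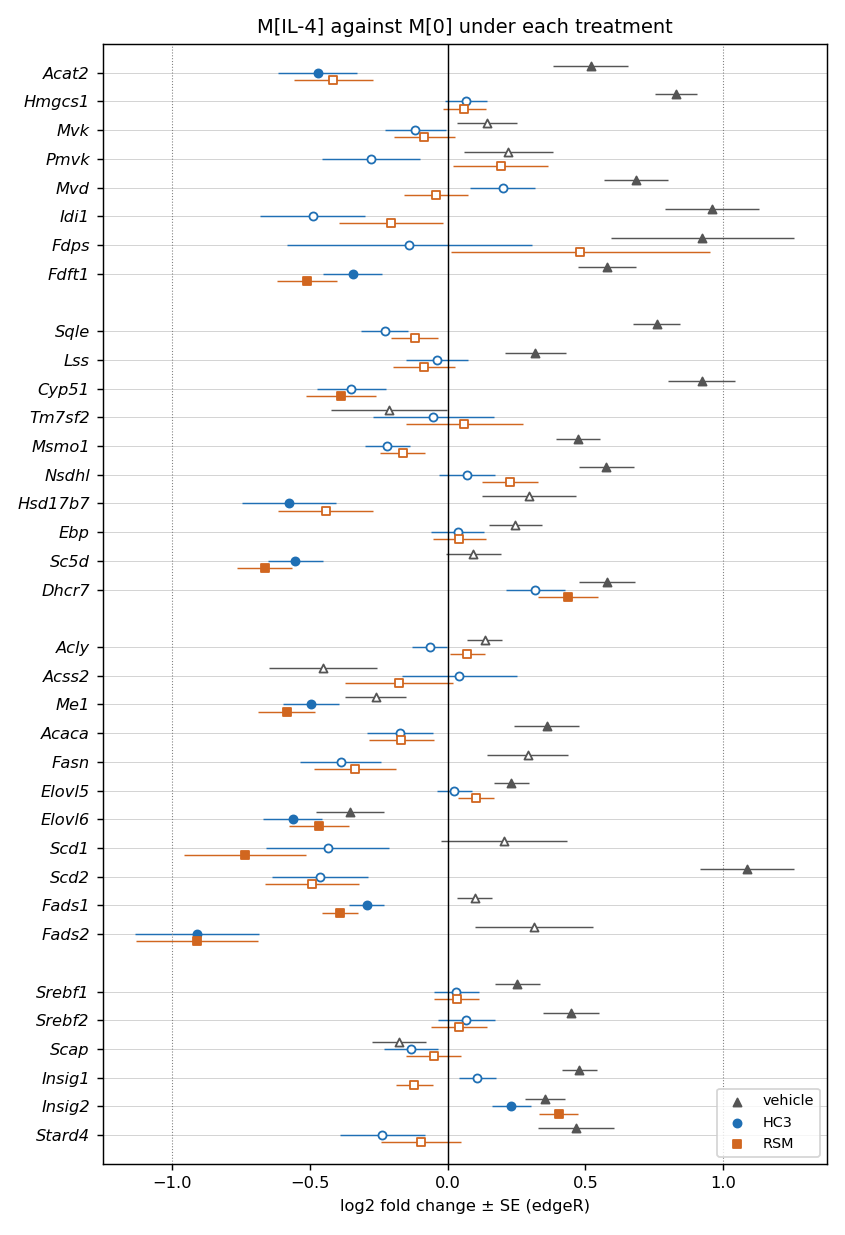
Log2 fold change ± SE of each of the 35 genes for M[IL-4] against M[0] under vehicle (grey triangles), HC3 (blue circles) and RSM (orange squares), from edgeR with 3 libraries per group. Filled symbols have an FDR under 0.05. Most sterol genes lie to the right under vehicle and at or to the left of 0 under either inhibitor.

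The interaction term tested whether the inhibitor effect differed between M[IL-4] and M[0]. For HC3, 15 members had a more negative effect in M[IL-4] and 0 a more positive one, compared with 3.4% and 3.08% of all genes. For RSM, 13 were more negative and 0 more positive, compared with 4.14% and 5.05%. The HC3 and RSM terms share the vehicle libraries of both states, so their likeness is not independent. At an unadjusted p under 0.05, edgeR gave 22 more negative members and 0 more positive for each inhibitor, and DESeq2 gave 0 more positive for each at an FDR under 0.05. The interaction was called (at most -1 on the log2 scale) for *Idi1*, *Cyp51*, *Scd2* and *Fads2* with HC3, against 0.761% of all genes, and for those 4 and *Fdft1* with RSM, against 0.921%. *Scd2* had the largest, -1.55 ± 0.24 for HC3 and -1.58 ± 0.24 for RSM (edgeR FDR 0.00067 and 0.00028). *Cyp51* had -1.27 ± 0.18 and -1.31 ± 0.18 (FDR 0.00021 and 7.4e-05), while *Insig1* had smaller terms of -0.37 ± 0.09 and -0.60 ± 0.09 (FDR 0.022 and 0.00032), the first of which did not pass with any 1 replicate left out (FDR up to 0.221).

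*Elovl6*, *Me1*, *Pmvk* and *Dhcr7*, which moved in both states, had interaction terms that did not pass, from -0.50 to -0.03 on the log2 scale, apart from the RSM term of *Me1* with a replicate block within each polarization state (FDR 0.0216). In the main fit, those of *Fdps*, *Srebf1* and *Srebf2* did not pass either (*Srebf2* edgeR FDR 0.134 for HC3 and 0.0866 for RSM). The *Srebf2* terms passed with a block over all libraries (FDR 0.00584 and 0.00238) and without a count filter (0.0253 and 0.00413). The interaction counts depended on replicate 3: without it, 3 members passed for HC3 and 5 for RSM, and the called ones were 1 and 2, with *Idi1*, *Scd2* and *Fads2* lost for both. *Fads2* was also lost for both without replicate 1 (FDR 0.176 and 0.115), and the RSM call of *Fdft1* without replicate 2. For HC3, 9 passed without replicate 1 and 9 without replicate 2. With a replicate block within each polarization state, 24 and 22 passed, and the called genes numbered 4 and 5 as before.

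HC3 and RSM, given at different doses, were also set side by side. In M[0], 1 member was higher (*Elovl6*) and 4 lower (*Mvd*, *Scd2*, *Fads1* and *Stard4*) with HC3 than with RSM, compared with 6.18% and 7.43% of all genes. In M[IL-4], 2 were higher (*Elovl6* and *Me1*) and 4 lower with HC3, namely *Scd2*, *Fads1*, *Insig2* and *Stard4*, compared with 4.97% and 8.03% of all genes. In both states these counts were small and stood near the background. *Stard4* differed most in M[IL-4] (-0.73 ± 0.15, edgeR FDR 0.0029) and *Mvd*, *Scd2*, *Fads1* and *Stard4* differed by -0.32 to -0.59 in M[0]. In edgeR without replicate 3, 0 of the 35 passed in either state, while at an unadjusted p under 0.05 there were 2 higher and 4 lower in M[0] and 0 higher and 3 lower in M[IL-4]; DESeq2 on all libraries gave 1 higher and 5 lower, and 2 higher and 4 lower. Without replicate 1, 1 member was higher and 2 lower in M[0] and 1 higher and 1 lower in M[IL-4], and without replicate 2, 2 were higher and 2 lower in M[IL-4]. With the block within each polarization state, 5 were higher and 7 lower with HC3 in M[0], and 3 higher and 6 lower in M[IL-4].

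A further 30 genes of the pathway, also chosen with earlier results known, gave context, and 29 of them were tested. With HC3 and RSM in M[IL-4], 13 and 12 of the 29 fell and 6 and 5 rose, with medians of -0.03 and -0.01 on the log2 scale, and in M[0] 9 and 5 fell and 10 and 8 rose. As shares of the 29, HC3 in M[IL-4] lowered 44.8% and raised 20.7%, against 19.9% and 18.9% of all genes, and RSM in M[IL-4] lowered 41.4% and raised 17.2%, against 18.5% and 20.1%. In M[0], HC3 lowered 31% and raised 34.5%, against 21.5% and 22.6% of all genes, and RSM lowered 17.2% and raised 27.6%, against 20.7% and 20.5%, so that several of these shares stood near the background. The 4 named here were picked after their values had been seen. *Npc1*, which exports cholesterol from lysosomes, rose in all 4 comparisons, by 1.13, 0.88, 1.16 and 0.99 on the log2 scale (HC3 and RSM in M[0], then in M[IL-4]). *Soat1*, which esterifies cholesterol for storage, rose by 0.28 to 0.46 in all 4. *Lpin1*, a phosphatidate phosphatase, fell in all 4, with log2 fold changes from -0.99 to -0.64. *Rnf145*, a ubiquitin ligase of the sterol feedback, also fell in all 4, with log2 fold changes from -0.998 to -0.40. IL-4 in Veh raised 7 (24.1%) and lowered 3 (10.3%) of the 29, against 16.1% and 14.9% of all genes, and the interaction passed for 8 with HC3 and 5 with RSM, of which 7 and 4 (24.1% and 13.8% of the 29, against 3.4% and 4.14% of all genes) were more negative in M[IL-4].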

How the data were processed

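Poly-T-selected RNA of 18 BMDM samples (6 groups of 3) had been sequenced. Groups and replicate numbers came from the labels. The deposited values are unnormalized counts for each Ensembl gene, for which the authors used fastp for adapter trimming, STAR for alignment to GRCm38 (read pairs with the stated mapping quality only), Picard to mark duplicates without removing them, and featureCounts over exons; versions and strand setting are not given in the sources used here, so reads of overlapping genes on opposite strands cannot be told apart. Total counts per library set the precision (17457796 to 19522255).

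The 14979 genes that reached 10 counts or more in 2 or more libraries were scaled by TMM and fitted in edgeR 4.0.16 (R 4.3.3) with 1 coefficient per group over all 18 libraries, tested by glmQLFTest, and adjusted by Benjamini-Hochberg. CPM are TMM-scaled. Of 55385 identifiers, 55144 matched a symbol in the GRCm38 annotation. Near-identical transcripts (98% identity over 100 bases or more) were sought with blastn 2.17.0. The pipeline was tested on simulated data. Promoters came from RefSeq. No value column was left unused.

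The 35 members, the lists and the thresholds were chosen with earlier results of these data known. Values in every library are given for the 3 members of each branch with the largest absolute log2 fold change over the 4 inhibitor comparisons, any member called in 3 or more of them, and *Srebf1*, *Srebf2*, *Scap*, *Insig1* and *Insig2*; the others are given by range, count or single values. Alternatives were library-size scaling, 2 other count filters, DESeq2 1.42.0, only the groups compared, no mitochondrial genes, leaving out each replicate number, and replicate blocks. Labels name 3 individual mice but do not tie a number to a mouse. Libraries of the same number and polarization deviated together (r 0.11 to 0.372, over 0.1 in 18 of 18 pairs). Across polarizations, r was over 0.1 in 12 of 27 pairs of the same number and in 10 of 54 pairs of different numbers. The replicate block within each polarization took the numbers as pairs there. The main fit used no block and treated the 18 libraries as independent, although they came from 3 mice. No 2 replicates were alike to within counting noise (chi-square per gene 5.78 to 18.2).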

Additional observations from a re-analysis of the deposited data

Results flagged for a closer look

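The inhibitor effect differed between M[IL-4] and M[0], by the interaction term of the edgeR fit at an FDR under 0.05 and a log2 size of at least 1, for 5 of the 35 genes. By inhibitor, 4 were called lower with HC3 and 5 with RSM, against 0.761% and 0.921% of all genes. Both sets of terms share the vehicle libraries, so their likeness is not independent. For *Idi1* the term was -1.448 with HC3 and -1.164 with RSM. For *Cyp51* it was -1.272 and -1.309, for *Scd2* -1.55 and -1.579, and for *Fads2* -1.221 and -1.223. *Fdft1* was picked up with RSM alone, at -1.089; its HC3 term of -0.92 also passed the FDR but not the size. All are log2 differences of the inhibitor effect, M[IL-4] minus M[0], and negative values mean a larger fall, or a fall in place of a rise, in M[IL-4].

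*Scd2* and *Fads2* combined a positive log2 fold change in M[0] with a negative one in M[IL-4], while *Idi1* and *Cyp51* were negative in both. Without replicate 3, the terms kept their sign but *Idi1* (FDR 0.113 and 0.141 for HC3 and RSM), *Scd2* (0.0741 and 0.0501) and *Fads2* (0.212 and 0.157) no longer passed. *Fads2* did not pass without replicate 1 either (0.176 and 0.115), and without replicate 2 the RSM term of *Fdft1* was -0.888, short of the size. The summed level of the stromal markers and the mitochondrial share also differed between the groups, and their part in these terms was not tested. Groups of 3 libraries were too small to be screened for single outlying samples.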

How the results depend on the processing

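Under 11 alternatives and 11 comparisons, 3869 values of single members kept their side of the FDR threshold, 188 lost and 178 gained significance. The sign was kept by 3776 of the 3869, while 93 that passed in neither fit changed it, and 0 that passed in either fit did. Members called with RSM in M[0] numbered 2 with library-size scaling (4 in the report; *Insig1* and *Dhcr7* were lost); with RSM in M[IL-4] the same scaling lost *Fdft1*, *Srebf2* and *Fads2*. That scaling moved the median of all genes by at most 0.061 on the log2 scale. For IL-4 in Veh, called members ranged from 0 without replicate 2 to 3 without replicate 1, for the HC3 interaction from 1 to 4 and for the RSM interaction from 2 to 5 over the replicates left out. The cause was not tested, apart from there being fewer libraries.

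The replicate block within each polarization changed no count of called members: HC3 and RSM in M[IL-4] stayed at 13 and 12. It raised the members past the FDR alone to 24 and 22 for the interactions (15 and 13 without the block). A block over all libraries gave 19 and 20. With only the groups compared, HC3 against RSM in M[IL-4] gave 0 higher and 1 lower member. Genes near 1 CPM, such as *Fdps*, rest on few counts. Whether depth or the sequence shared with other genes keeps *Fdps* low was not tested.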
